A study of Mus musculus with 12 samples.

Results

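The Fc receptor genes described here are *Fcgr1*, *Fcgr2b*, *Fcgr3*, *Fcgr4*, *Fcer1g* and *Fcgrt*, which were picked by name, with earlier results of these data known. They are 6 of the 55487 gene models in the expression table, and all 6 passed the filter on low values in every comparison. RNA-seq of poly(A) RNA was performed on bone-marrow-derived macrophages (BMDMs) of C57BL/6 mice aged 8 to 12 weeks, grown in L929-conditioned medium, to find which transcripts change when RasGEF1b, a Ras guanine nucleotide exchange factor induced by Toll-like receptors, is missing. The 4 groups, with 3 libraries each, were RasGEF1b-cKO (KO) macrophages given 100 ng/ml LPS over 4 h, KO macrophages left untreated, wild-type (WT) macrophages given the same dose of LPS, and WT macrophages left untreated. KO mice carry the genotype Rasgef1b-fl/fl;CMVcre. The CMV promoter drives Cre in all tissues, so that the deletion of exons 7 and 8 is not limited to macrophages. The study calls the 3 libraries of a group biological replicates. Expression is given in normalized counts, that is, read counts divided by 1 size factor per library.

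Fc receptors let a macrophage sense antibody. Fcγ receptors bind the constant part of IgG on coated particles and immune complexes, and drive their uptake, killing and the release of cytokines. In the mouse, FcγRI (*Fcgr1*, the high-affinity receptor), FcγRIII (*Fcgr3*) and FcγRIV (*Fcgr4*) are activating and signal through the common γ chain (*Fcer1g*), whose tyrosine motif recruits Syk, whereas FcγRIIB (*Fcgr2b*) carries an inhibitory motif of its own that recruits the phosphatase SHIP1. The neonatal Fc receptor FcRn (*Fcgrt*) pairs with β2-microglobulin and returns IgG from endosomes to the surface, which spares it from degradation.

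Reads assigned to genes numbered 19316691 to 24977356 per library (median 20552126), and a single read equalled 1.21 to 1.41 normalized counts with LPS and 0.660 to 0.855 without it. Levels across the LPS treatment therefore depend on the size factors. The targeted gene *Rasgef1b* counted over all its exons, had 3618 to 4192 normalized counts in KO and 11844 to 12554 in WT macrophages with LPS. Without LPS it had 545 to 695 in KO and 2001 to 2171 in WT macrophages. All 7 macrophage markers listed were present (summed 212331 to 362507 normalized counts per library), NK and T cell markers summed to at most 5.99, and B cell markers to 103 to 206. Neutrophil and precursor markers summed to 265 to 894 with LPS (highest in KO replicate 1, with *Ly6g* at 0 in all LPS-treated libraries) and 208 to 456 without it, and dendritic cell markers to 80.2 to 156 with LPS and 13.7 to 30.3 without it. The part of these cells in the LPS results was not tested. The libraries of replicate 2 in KO and of replicate 1 in WT macrophages, in both treatments, held 15146 to 18652 normalized counts of *Xist*, the X-inactivation transcript of female cells, against 5.73 to 28.7 in the other 8. In untreated KO replicate 2, 5.06% of the reads fell on the gene model ENSMUSG00000106106, which had 0.0398% to 0.0874% elsewhere. Each genotype thus had 1 replicate with *Xist*, and genotype comparisons were also run without these 4 libraries.

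In GRCm38, 4 of the 6 genes lie within a stretch of chromosome 1: *Fcgr2b* (ENSMUSG00000026656, 170958617 to 170976547, minus strand), *Fcgr4* (ENSMUSG00000059089, 171018920 to 171029761, plus strand), *Fcgr3* (ENSMUSG00000059498, 171051174 to 171064935, minus strand) and *Fcer1g* (ENSMUSG00000058715, 171229572 to 171234365, minus strand). *Fcgr1* (ENSMUSG00000015947) lies on chromosome 3 from 96282909 to 96293969 and *Fcgrt* (ENSMUSG00000003420) on chromosome 7 from 45092990 to 45103851, both on the minus strand. The inhibitory *Fcgr2b* and the activating *Fcgr3* share a stretch of 129 identical coding bases, which is printed here. The stretch is shorter than a full read of 150 bases, so only trimmed reads could lie wholly inside it. It spans the junction of exons 3 and 4 in both genes (chr1:170966674-170968081 in *Fcgr2b* and chr1:171054167-171057792 in *Fcgr3*, introns included, minus strand).
Fcgr2b and Fcgr3 shared stretch: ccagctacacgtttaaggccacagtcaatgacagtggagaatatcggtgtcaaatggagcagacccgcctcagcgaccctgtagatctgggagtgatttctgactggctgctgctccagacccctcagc
Of the windows of 50 bases along the transcripts, 11.8% of those of *Fcgr2b* and 12.8% of those of *Fcgr3* were also found in the other gene, while none of the windows of 150 bases, the length of 1 sequenced read, was. The longest identical runs between the other pairs of the 4 IgG receptor genes were 12 to 14 bases, and no window of 50 bases of *Fcgr1*, *Fcgr4*, *Fcer1g* or *Fcgrt* occurred in another gene. How the counting treated reads with several matches is not given in the sources used here, so a small exchange of reads between *Fcgr2b* and *Fcgr3* was not tested.

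The promoters of the 4 IgG receptor genes are shown because they belong to one receptor family whose members differed in the size of their response to LPS. The sequences are the bases before an annotated start in RefSeq (GRCm38.p6), and all 6 genes had an entry. They were cut where a transcript with a consensus coding sequence begins. The windows of *Fcgr3* and *Fcgr2b* lie inside the gene spans given above, so they precede an internal start and not the outermost annotated one. *Fcgr3* had 2 entries, of which the longer window is printed. Capitals mark a STAT-type element (GAS, TTCNNNGAA), an interferon-stimulated response element (ISRE, GAAA and GAAA with 2 bases between them) and the core of a PU.1 site (GAGGAA), each searched on both strands.
Fcgr1 (chr3:96293970-96294219, minus strand): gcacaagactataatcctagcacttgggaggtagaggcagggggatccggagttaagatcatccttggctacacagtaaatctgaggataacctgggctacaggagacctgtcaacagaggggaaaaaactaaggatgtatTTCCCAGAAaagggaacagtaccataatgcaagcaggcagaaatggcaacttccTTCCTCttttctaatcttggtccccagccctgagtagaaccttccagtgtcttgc
Fcgr4 (chr1:171018676-171018919, plus strand): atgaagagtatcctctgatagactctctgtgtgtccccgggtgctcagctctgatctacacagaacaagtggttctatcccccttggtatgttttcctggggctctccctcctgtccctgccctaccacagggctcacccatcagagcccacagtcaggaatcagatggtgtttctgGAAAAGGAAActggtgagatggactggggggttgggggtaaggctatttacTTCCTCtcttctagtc
Fcgr3 (chr1:171059404-171059653, minus strand): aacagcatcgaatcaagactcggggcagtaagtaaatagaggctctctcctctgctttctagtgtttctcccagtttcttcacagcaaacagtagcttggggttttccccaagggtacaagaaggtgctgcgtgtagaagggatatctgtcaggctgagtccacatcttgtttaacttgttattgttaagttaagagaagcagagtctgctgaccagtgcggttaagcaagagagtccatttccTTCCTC
Fcgr2b (chr1:170976128-170976321, minus strand): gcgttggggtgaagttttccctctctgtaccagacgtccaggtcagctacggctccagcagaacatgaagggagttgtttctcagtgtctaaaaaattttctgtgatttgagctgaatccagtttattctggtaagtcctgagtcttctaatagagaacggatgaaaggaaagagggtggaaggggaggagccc
The *Fcgr1* window held 1 GAS match at position -109 from the start and 1 PU.1 match at -55. The *Fcgr4* window held 1 ISRE match at -73 and 1 PU.1 match at -22, and that of *Fcgr3* a PU.1 match at -6. No match overlapped another. The windows of *Fcgr2b*, *Fcer1g* and *Fcgrt* held none of these 3 motifs. Of 32851 mouse promoters of 250 bases, 7.02% held the GAS letters, 2.98% the ISRE letters and 23.3% the PU.1 letters. An NF-κB pattern (GGGA and CC with 4 bases between them), present in 17.6% of the promoters, matched 1 time in *Fcgr4*, *Fcgr3* and *Fcgr2b*, 2 times in *Fcer1g* and 0 times in *Fcgr1* and *Fcgrt*. Matches describe letters in a window and were not tested as binding sites.

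Per kilobase of exon, the common γ chain had the highest level of the 6 genes in each of the 12 libraries, followed by *Fcgr3*. *Fcer1g* stood at percentile 99.6 to 99.7 of the 12695 genes compared by level per kilobase, and *Fcgr3* at 99.1 to 99.4. In LPS-treated macrophages of both genotypes the order went on with *Fcgr1*, *Fcgr4*, *Fcgr2b* and *Fcgrt*. In untreated macrophages it went on with *Fcgr1*, *Fcgrt*, *Fcgr4* and *Fcgr2b*, except in WT replicate 3, where *Fcgrt* (1418 per kb) exceeded *Fcgr1* (1381 per kb). Among neighbours in these orders, the libraries of *Fcgr3* and *Fcgr1* and those of *Fcgr1* and *Fcgr4* overlapped in LPS-treated KO macrophages, and those of *Fcgr1* and *Fcgrt* and of *Fcgr4* and *Fcgr2b* in untreated WT macrophages, while the other neighbours did not overlap. The place of *Fcgr2b* depends on its length, which is 5790 nt over all annotated exons and 1462 nt in its shortest coding transcript.

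**Figure D1:**
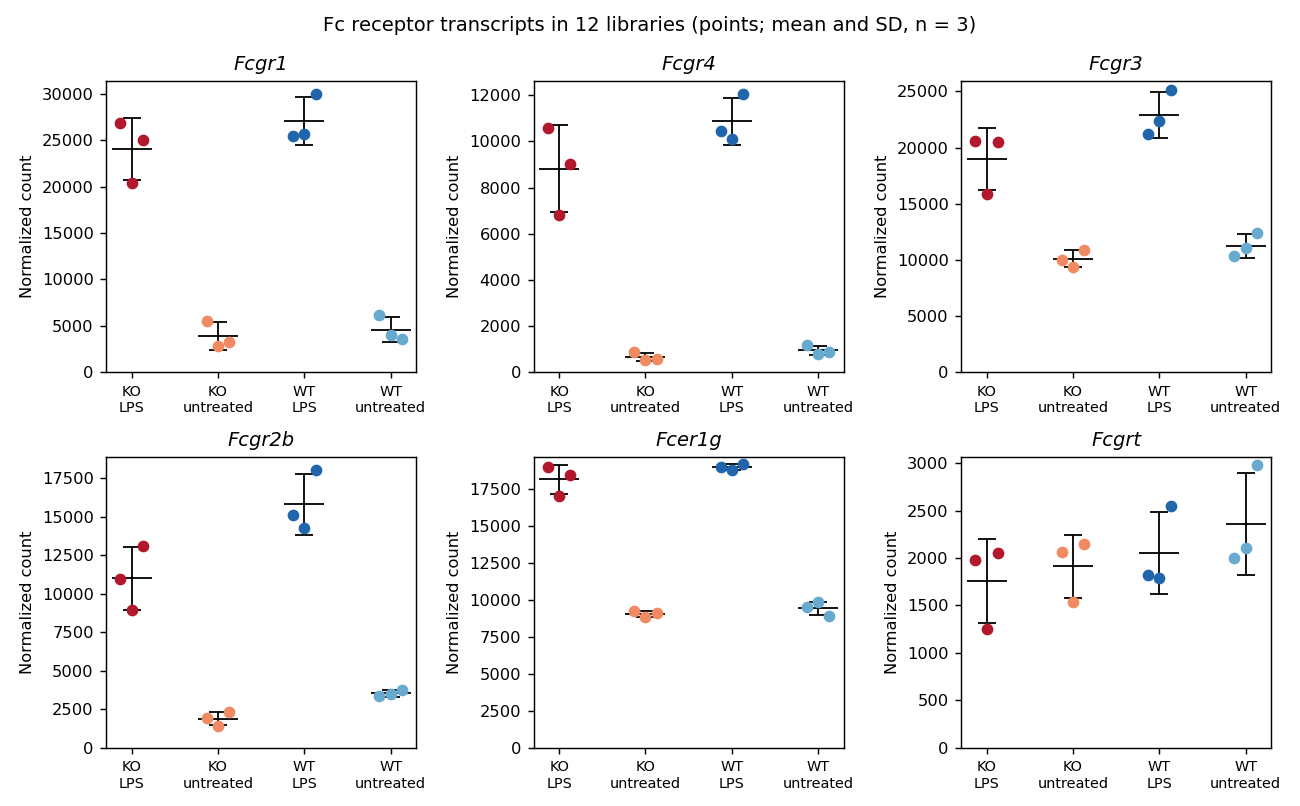
Normalized counts (y axis, linear from 0) of the 6 Fc receptor genes in each of the 12 libraries, with the mean and SD of each group (n = 3). LPS-treated libraries lie above the untreated ones of the same genotype for every gene but *Fcgrt*, and untreated KO libraries lie below the WT ones without overlap only for *Fcgr2b*. With quantile normalization in place of the size factors, *Fcgr3* and *Fcer1g* did not differ in this way between treatments.

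LPS raised the transcripts of the IgG receptors in macrophages of both genotypes, most of all *Fcgr4*, then *Fcgr1* and *Fcgr2b*. With the authors' size factors the γ chain gene *Fcer1g* was about 2.0-fold higher in both genotypes and *Fcgr3* 1.87-fold in KO and 2.03-fold in WT macrophages, but both turned slightly negative with quantile normalization. *Fcgrt* did not pass the unpaired test with the size factors. It passed as lower in WT macrophages with the replicate number as a block, and in both genotypes with CPM scaling and quantile normalization. In WT macrophages 5 of the 6 genes were called higher (limma, adjusted p under 0.05 and a log2 fold change of at least 1), where 17.1% of the 12656 genes tested were called higher and 16.9% lower (36.7% and 36.6% at the adjusted p alone). In KO macrophages 3 of the 6 were called higher, where 17.3% of 12732 genes were called higher and 16.6% lower. At an adjusted p alone 5 of the 6 passed in KO macrophages (36.3% of all genes higher and 35.7% lower), and *Fcer1g* missed the fold threshold there by less than its error. The median log2 fold change of the 6 genes was 1.78 in KO and 1.59 in WT macrophages, against -0.01 and -0.02 over all genes tested.

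*Fcgr4*, which encodes FcγRIV, had 10566.5, 6821 and 9043 normalized counts in LPS-treated KO macrophages, against 863, 511 and 580.0 in untreated KO macrophages. In WT macrophages it had 10458, 10101 and 12041 with LPS, against 1156, 803 and 851 without it. The groups lay far apart, with a 13.6-fold difference in KO (log2 3.77, SE 0.21, limma adjusted p = 5.34e-07) and an 11.7-fold difference in WT macrophages (log2 3.55, SE 0.13, adjusted p = 1.32e-08). Only 4.35% of the genes tested in KO and 4.92% of those in WT macrophages changed more, in either direction.

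*Fcgr1*, the only high-affinity IgG receptor gene of the list, had 26860.3, 20361 and 25031 normalized counts in LPS-treated KO macrophages, against 5558, 2773 and 3295 in untreated ones. In WT macrophages it had 25509, 25712 and 30036 with LPS and 6116, 4042 and 3577 without. The difference was 6.46-fold in KO (log2 2.69, SE 0.23, limma adjusted p = 8.89e-06) and 6.06-fold in WT macrophages (log2 2.60, SE 0.17, adjusted p = 7.43e-07). Untreated replicate 1 had the highest *Fcgr1* and *Fcgr4* of its group in both genotypes. For *Fcgr1* it lay 0.59 (KO) and 0.46 (WT) log2 units above the group mean, so the untreated level of this gene varied more than that of the others, with a coefficient of variation of 38.2% in KO and 29.5% in WT macrophages.

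*Fcgr3* encodes the low-affinity activating receptor FcγRIII and was already abundant without LPS. It had 20612, 15834 and 20510.4 normalized counts in LPS-treated KO macrophages, against 9996, 9395 and 10915 in untreated ones. In WT macrophages it had 21178.5, 22351 and 25139.6 with LPS, against 10333.5, 11022 and 12429 without. These groups did not overlap, and the log2 fold change was 0.90 (SE 0.11, limma adjusted p = 1.08e-04) in KO and 1.02 (SE 0.09, adjusted p = 4.24e-06) in WT macrophages, but -0.15 and -0.04 with quantile normalization.

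*Fcgr2b*, the inhibitory receptor, was called higher in both genotypes too. It had 10972, 8972 and 13080.2 normalized counts in LPS-treated KO macrophages, against 1924, 1435 and 2303 in untreated ones. WT macrophages had 15090.1, 14233 and 18060.4 with LPS, against 3337, 3500.5 and 3757 without. It was 5.87-fold higher in KO (log2 2.55, SE 0.18, limma adjusted p = 2.69e-06) and 4.45-fold higher in WT macrophages (log2 2.15, SE 0.09, adjusted p = 3.06e-08).

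*Fcer1g*, the signalling chain that the activating receptors share, varied least between replicates, with coefficients of variation of 0.937% to 5.52%. It had 18949, 17012 and 18419.8 normalized counts in LPS-treated KO macrophages, against 9254, 8841 and 9073 in untreated ones. WT macrophages had 18951, 18795 and 19149.6 with LPS, against 9487, 9836 and 8926 without. Both differences were 2.0-fold (log2 0.9999, SE 0.07, limma adjusted p = 2.10e-06 in KO; log2 1.01, SE 0.06, adjusted p = 1.96e-07 in WT macrophages), and -0.02 and -0.05 on the log2 scale with quantile normalization.

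*Fcgrt*, the gene of FcRn, was the exception. It had 1978, 1251 and 2053 normalized counts in LPS-treated KO macrophages, against 2063, 1532 and 2144 in untreated ones. WT macrophages had 1824, 1788 and 2546 with LPS, against 1999, 2106 and 2981 without. The groups overlapped in both genotypes, and the log2 differences were -0.14 (SE 0.20, 95% interval -0.59 to 0.31, limma adjusted p = 0.545) in KO and -0.20 (SE 0.17, 95% interval -0.58 to 0.19, adjusted p = 0.316) in WT macrophages. Within pairs of one replicate number it was lower with LPS in 3 of 3 pairs in each genotype, and with the number as a block its limma adjusted p was 0.0745 in KO and 0.00559 in WT macrophages. With quantile normalization the log2 fold changes were -0.65 in KO (limma adjusted p = 0.0125) and -0.79 in WT macrophages (adjusted p = 0.00278), and with CPM scaling -0.82 (adjusted p = 0.00285) and -0.92 (adjusted p = 3.79e-04).

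The LPS groups of *Fcgr1*, *Fcgr2b*, *Fcgr3*, *Fcgr4* and *Fcer1g* lay above the untreated groups without overlap in both genotypes, as they did for 38.4% of all genes tested in KO and 38.3% in WT macrophages (38.1% and 38.6% lay below). Scaling by total reads (CPM) instead of size factors shifted the median of all genes to -0.69 in KO and -0.74 in WT macrophages on the log2 scale. The log2 fold changes were then 3.08 in KO and 2.83 in WT macrophages for *Fcgr4*, 2.00 and 1.87 for *Fcgr1*, 1.87 and 1.43 for *Fcgr2b*, 0.22 and 0.30 for *Fcgr3*, and 0.31 and 0.29 for *Fcer1g*. *Fcgr4*, *Fcgr1* and *Fcgr2b* stayed called under all alternatives run, and *Fcgr3* and *Fcer1g* did not. In RNA from whole cultures, fewer cells of a type and less RNA per cell cannot be told apart.

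**Figure D2:**
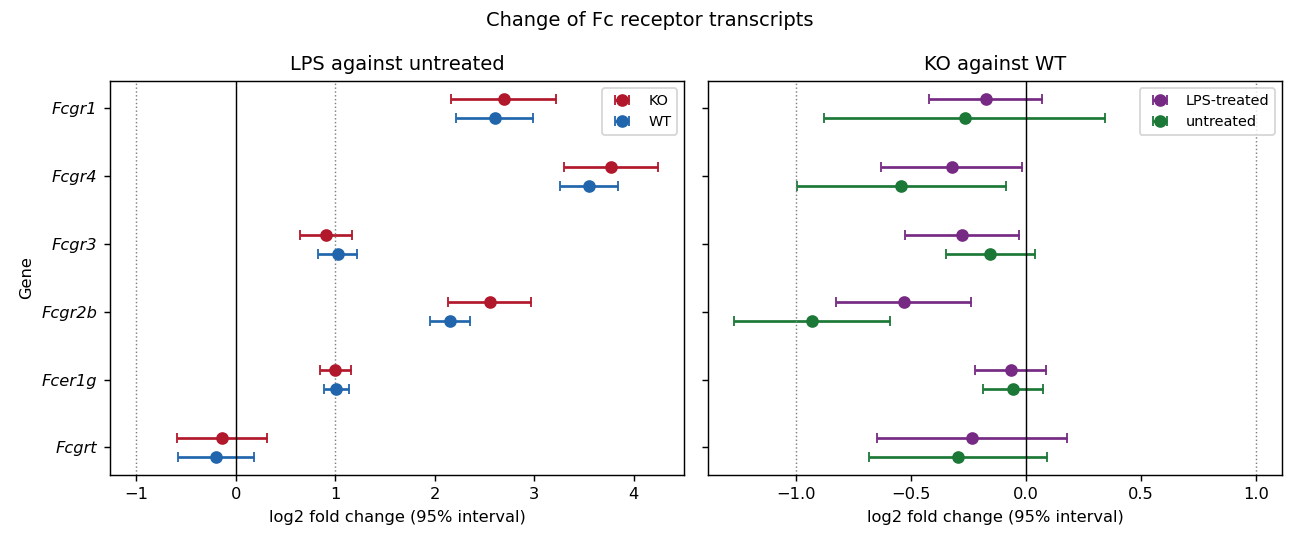
Log2 fold changes (x axis) with 95% intervals for the 6 genes (rows). The left panel gives LPS against untreated in KO (red) and WT (blue) macrophages, the right panel KO against WT in LPS-treated (purple) and untreated (green) macrophages, and dotted lines mark the fold threshold. On the left *Fcgr4* has the largest changes (3.77 and 3.55) and *Fcgrt* intervals that include 0 with the size factors, while *Fcgr3* (0.90 and 1.02) and *Fcer1g* (0.9999 and 1.01) turn slightly negative with quantile normalization. On the right the points are all below 0 and *Fcgr2b* is the lowest in both treatments (-0.53 and -0.93).

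The comparison of KO with WT macrophages shows how these transcripts differ between the genotypes. WT mice were provided by an animal facility in Brazil, while the KO line was generated in the USA. Littermate controls are not described, so differences of line or colony cannot be told apart from the loss of RasGEF1b. *Fcgr2b* was the gene with the largest difference. In untreated macrophages its level was 1887 ± 435 normalized counts in KO and 3532 ± 211 in WT macrophages (SD, n = 3 libraries each), or 0.525-fold (95% interval 0.416 to 0.664). Its log2 fold change was -0.93 (SE 0.15), and it passed the adjusted p alone (limma adjusted p = 0.0427), as 0.281% of the 12461 genes did in this direction and 0.257% in the other, but not the fold threshold. Only 1.15% of the genes tested changed more. No Fc receptor gene was called with the fold threshold, where 0.0963% of genes were called lower. At an unadjusted limma p under 0.05, 2 of the 6 genes passed (*Fcgr2b* and *Fcgr4*), as did 10.8% of all genes tested. With the fold threshold both edgeR and DESeq2 called 0. At the adjusted p alone *Fcgr2b* passed in both (edgeR adjusted p = 0.0481, DESeq2 adjusted p = 3.10e-09, log2 -0.90 in each).

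The 3 untreated KO libraries lay below the 3 untreated WT libraries for *Fcgr2b*, as they did for 7.98% of all genes tested (8.41% lay above), and overlapped them for the other 5 genes. The adjusted p of *Fcgr2b* passed in 10 of 14 other settings (3.10e-09 to 0.178), among them the replicate block, whose numbers do not pair libraries between genotypes. It passed in 1 of the 6 fits with 1 library left out. It was 0.0592 without KO replicate 1, 0.0245 without KO replicate 2, 0.0506 without KO replicate 3, and 0.118, 0.156 and 0.110 without WT replicates 1, 2 and 3, with log2 fold changes of -1.09 to -0.74 over these fits. Without the libraries with *Xist* the log2 fold change was -0.78 (adjusted p = 0.0691), and with *Xist* as a term it was -0.93 (adjusted p = 0.0153). The macrophage markers summed to 212331 to 264875 normalized counts in untreated KO and 255496 to 319920 in untreated WT macrophages. Most of this sum was *Lyz2*, with means of 146219 in untreated KO and 187439 in untreated WT macrophages. *Adgre1* (26666 and 26959) and *Cd68* (25927 and 26407) were nearly level. *Itgam* alone had a higher mean in KO macrophages (4955 and 4361). The part of these markers in the result was not tested.

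The other genes had smaller differences in untreated macrophages. *Fcgr4* had 651 ± 186 normalized counts in KO and 936 ± 191 in WT macrophages (log2 -0.54, SE 0.20, limma adjusted p = 0.364). For *Fcgrt* and *Fcgr1* the log2 fold changes were -0.30 (SE 0.17, adjusted p = 0.593) and -0.27 (SE 0.27, adjusted p = 0.796), and that of *Fcgr1* was 0.17 without the libraries with *Xist*. Without those libraries *Fcgr4* had -0.22, *Fcgrt* -0.25, *Fcgr3* -0.16 and *Fcer1g* -0.032. Without KO replicate 2 alone, *Fcgr4* had -0.39, *Fcgrt* -0.14, *Fcgr1* -0.058, *Fcgr3* -0.10 and *Fcer1g* -0.038. *Fcgr3* (-0.16, 95% interval -0.35 to 0.04) and *Fcer1g* (-0.06, 95% interval -0.19 to 0.08) had the narrowest intervals. On the linear scale the interval of *Fcer1g* was 0.879-fold to 1.05-fold.

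In LPS-treated macrophages *Fcgr2b* again had the largest difference, with 11008 ± 2054 normalized counts in KO and 15794 ± 2009 in WT macrophages (0.692-fold, log2 -0.53, SE 0.13, limma adjusted p = 0.128). It passed the adjusted p in 4 of 14 other settings (0.00309 to 0.421), again with the replicate block among them. It passed in 0 of the 6 fits with 1 library left out. The KO libraries lay below the WT libraries without overlap for *Fcgr2b* and *Fcgr3*, as they did for 7.73% of all genes tested (8.35% lay above). *Fcgr3* had 18986 ± 2730 normalized counts in KO and 22890 ± 2035 in WT macrophages (log2 -0.28, SE 0.11, adjusted p = 0.412). The log2 fold changes of *Fcgr4*, *Fcgrt*, *Fcgr1* and *Fcer1g* were -0.32, -0.24, -0.18 and -0.07, with limma adjusted p of 0.448 to 0.803. None of the 6 was called (0.064% of all genes were called lower and 0.168% higher, or 0.312% and 0.504% at the adjusted p alone). With the fold threshold edgeR and DESeq2 called none either. At the adjusted p alone *Fcgr2b* passed with DESeq2 (adjusted p = 0.00309, log2 -0.52) but not with edgeR (adjusted p = 0.103, log2 -0.52). An unadjusted limma p under 0.05 was found for 3 genes (*Fcgr2b*, *Fcgr3* and *Fcgr4*), as for 10.6% of all genes tested. Without KO replicate 2 the log2 fold changes were -0.39 for *Fcgr2b*, -0.15 for *Fcgr3*, -0.15 for *Fcgr4*, -0.0072 for *Fcgrt*, -0.059 for *Fcgr1* and -0.022 for *Fcer1g*. Without the libraries with *Xist* they were -0.42 for *Fcgr2b* (limma adjusted p = 0.421), -0.21 for *Fcgr3*, -0.17 for *Fcgr4*, -0.082 for *Fcgrt*, -0.10 for *Fcgr1* and -0.022 for *Fcer1g*.

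All 6 values were below 0 in both genotype comparisons, where 53.4% of all genes tested in untreated and 50.4% in LPS-treated macrophages were. The medians of the 6 were -0.28 and -0.26. KO replicate 2, which carries *Xist*, was the lowest KO library for all 6 genes in both treatments, as it was for 19.4% of 12711 genes, and it also had the lowest macrophage marker sum of its groups. The untreated and LPS-treated libraries of one number deviated together, so these 2 comparisons are not independent. The response to LPS itself did not pass a test of difference between the genotypes for any of the 6 genes. The interaction was largest for *Fcgr2b* at 0.40 on the log2 scale (SE 0.23, 95% interval -0.09 to 0.89, unadjusted p = 0.103, limma adjusted p = 0.999), 0 of the 6 had an unadjusted p under 0.05 (4.22% of all genes did) or were called by edgeR or DESeq2, and 1 of 12711 genes (0.00787%) was called. It uses the same libraries as the comparisons above.

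**Figure D3:**
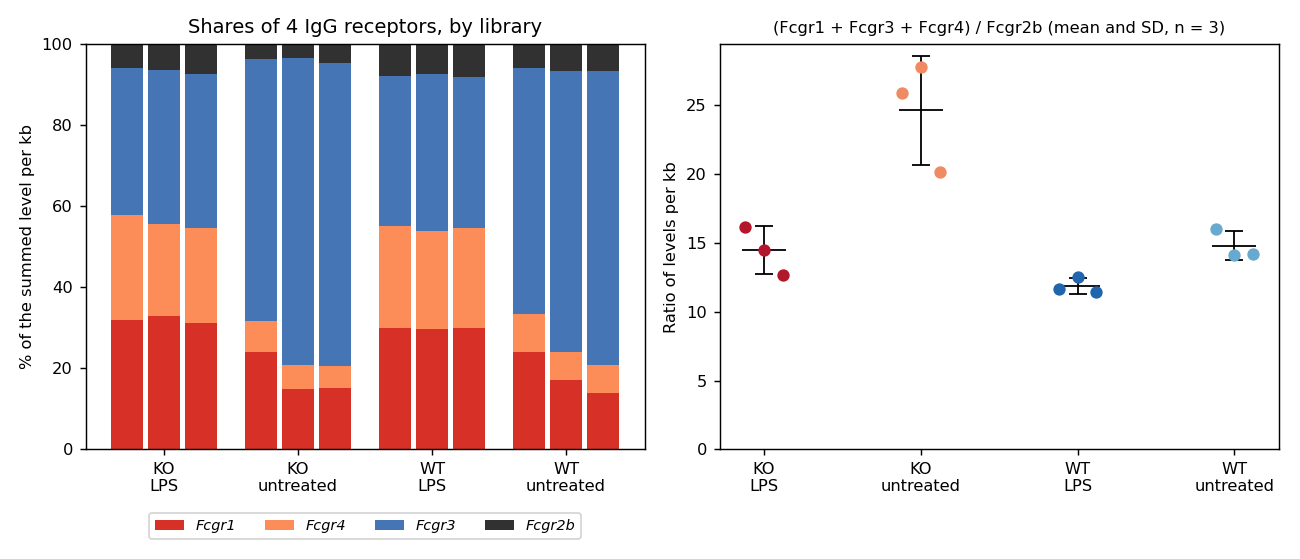
Left, the share of *Fcgr1*, *Fcgr4*, *Fcgr3* and *Fcgr2b* in their summed level per kilobase of exon (y axis, %) in each library. Right, the level per kilobase of the 3 activating receptors over that of *Fcgr2b* (y axis, ratio) in each library, with the mean and SD of each group (n = 3). *Fcgr3* takes 64.5% to 75.8% in untreated KO and 60.7% to 72.6% in untreated WT macrophages and under 39% in every LPS-treated library. The ratio is highest in untreated KO macrophages (20.2 to 27.8). Shares and ratios depend on the exon lengths used, and the ratios are much lower with 1462 nt than with the 5790 nt used for *Fcgr2b*.

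The balance of the 4 IgG receptors differed between the groups, as levels per kilobase of exon show. *Fcgr3* made up 37.6% ± 0.96 of their summed level in LPS-treated KO and 71.7% ± 6.22 in untreated KO macrophages, and 37.7% ± 0.88 in LPS-treated WT and 67.5% ± 6.15 in untreated WT macrophages (SD, n = 3 each). *Fcgr4* made up 23.9% in LPS-treated and 6.30% in untreated KO macrophages, and 24.7% and 7.74% in WT ones. *Fcgr1* took 32.0% and 18.1% in KO, and 29.9% and 18.4% in WT macrophages. These shares are ratios within a library and do not depend on its size factor, but they depend on the exon lengths used.

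The activating receptors together had 14.4 ± 1.74 times the level of *Fcgr2b* in LPS-treated KO macrophages and 24.6 ± 3.97 times in untreated ones, against 11.9 ± 0.59 and 14.8 ± 1.07 times in WT macrophages. The untreated KO libraries (20.2, 25.9 and 27.8, in rank order) lay above the untreated WT libraries (14.1, 14.2 and 16.0). *Fcgr2b*, the divisor, lay lower without overlap in the same KO libraries, as did 7.98% of all genes tested. With LPS the KO libraries had 12.7 to 16.2 and the WT libraries 11.4 to 12.5. The ratio of *Fcgr3* to *Fcgr2b* alone, the pair that shares bases, was 18.3 ± 3.13 in untreated KO and 10.6 ± 0.37 in untreated WT macrophages. *Fcer1g* had 0.770 ± 0.09 times the summed level of the activating receptors in LPS-treated KO and 1.33 ± 0.12 times in untreated KO macrophages, and 0.675 ± 0.05 and 1.20 ± 0.11 times in WT ones. Ratios were not tested, since they repeat the values above, and their absolute size follows the exon lengths used. In LPS-treated WT replicate 1, *Fcgr2b* had 2606 per kb over all exons and 10321.5 per kb of its shortest coding transcript. *Fcgr1* had 9853 per kb by both lengths. The ratios to *Fcgr2b* are thus much lower by the shorter length.

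**Figure D4:**
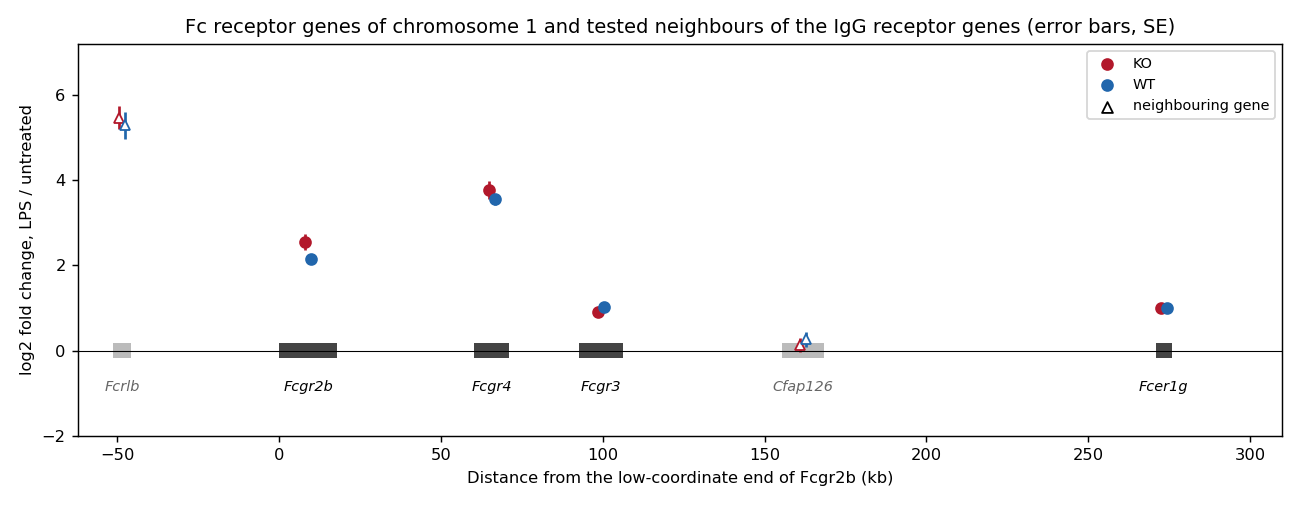
Log2 fold changes for LPS against untreated (y axis, error bars SE) of the Fc receptor genes of chromosome 1 (filled circles) and the nearest tested protein-coding neighbours of the IgG receptor genes (open triangles) in KO (red) and WT (blue) macrophages, by distance from the low-coordinate end of *Fcgr2b* (x axis, kb), with gene bodies as boxes. *Fcrlb* (5.47 and 5.29) and *Fcgr4* (3.77 and 3.55) are highest, while *Cfap126* on the other side of *Fcgr3* has 0.13 and 0.27. *Fcgr3* and *Fcer1g* turn slightly negative with quantile normalization.

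The neighbours of the Fc receptor genes on chromosome 1 did not share one response to LPS. *Fcrlb*, an Fc receptor-like gene 45676 bp from *Fcgr2b*, rose to 168 ± 34.6 normalized counts in LPS-treated KO macrophages, against 2.80 ± 0.64 in untreated ones, and to 214 ± 10.6 in LPS-treated WT macrophages, against 4.89 ± 2.69 (log2 5.47 and 5.29, limma adjusted p = 2.42e-07 and 3.12e-07). *Cfap126*, 48983 bp from *Fcgr3*, had log2 fold changes of 0.13 in KO and 0.27 in WT macrophages and did not pass. Next to *Fcer1g*, *Apoa2*, an apolipoprotein gene 3193 bp away, had 0.53 in KO (limma adjusted p = 0.0682) and 1.19 in WT macrophages (adjusted p = 0.00455). Beside *Fcgr1*, *Txnip* had -0.56 and -0.63 and *H3c15* -0.41 and -1.08. Beside *Fcgrt*, *Rcn3*, tested in WT macrophages alone, had -0.67 (limma adjusted p = 0.115).

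For each Fc receptor gene, the genes whose log2 levels over the 12 libraries were most like it after centring were found among 12711 genes, by the root mean square difference. *Fcgr1* was closest to *Trim34a* (0.10), *Sp100* (0.11) and *Lgals9* (0.11), and *Fcgr4* to *Parp9* (0.17), *Dtx3l* (0.17) and *Pnp* (0.17). *Fcgr3* was closest to *Paxbp1* (0.08), *Ccnl2* (0.08) and *Crbn* (0.09), and *Fcer1g* to *Nipa2* (0.04), *Cyfip1* (0.05) and *Mrpl13* (0.06). *Fcgrt* was closest to *Csf1r* (0.13), *Slc9a9* (0.14) and *Ctsf* (0.15). *Fcgr2b* had the least close matches, with *Aoah* (0.19), *Arl5c* (0.25) and *Csf3r* (0.26) over its own range of 3.65 log2 units. In untreated macrophages the log2 fold changes of KO against WT were -0.81 for *Aoah*, -0.69 for *Arl5c* and -0.66 for *Csf3r*, which did not pass (limma adjusted p of 0.112 to 0.306). These genes were chosen by likeness over the same libraries, which includes the genotype difference.

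The genes that act with the Fc receptors were described from 7 further lists. Their counts stand beside 17.3% of all genes called higher and 16.6% lower with LPS in KO, and 17.1% and 16.9% in WT macrophages. All values and calls of list genes, here and below, are from the main fit with the size factors, and other scalings are not given for them. *Fcgr3* and *Fcer1g*, of like size to the smaller rises among them, lost their calls in WT macrophages with CPM scaling and with quantile normalization. Among 35 kinases, adaptors and effectors that carry the signal of the γ chain, 14 were called higher and 6 lower with LPS in KO macrophages, and 12 higher and 5 lower in WT macrophages (list medians 0.55 and 0.62). The kinase gene *Src* had 5238 ± 263 normalized counts in LPS-treated and 118 ± 22.6 in untreated KO macrophages, and 4651 ± 173 and 92.5 ± 11.8 in WT ones (log2 5.48 and 5.64). *Lcp2*, which encodes the adaptor SLP-76, rose by 3.72 in KO and 3.76 in WT macrophages on the log2 scale, *Malt1* of the CARD9-BCL10-MALT1 complex by 3.56 and 3.37, and the phospholipase gene *Pla2g4a* by 3.30 and 3.19. *Syk* itself, the kinase recruited to the γ chain, was called higher in both genotypes (1.19 and 1.08).

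Among 13 inhibitory phosphatases, adaptors and ubiquitin ligases, 1 was called higher and 3 lower in KO and 1 higher and 4 lower in WT macrophages (medians -0.78 and -0.74), with the shares of all genes called lower being 16.6% and 16.9%. *Inpp5d*, which encodes SHIP1, the phosphatase that FcγRIIB recruits, fell to 572 ± 63.6 normalized counts in LPS-treated KO macrophages, against 4577 ± 370 in untreated ones, and to 679 ± 82.2 in LPS-treated WT macrophages, against 4169 ± 197 (log2 -3.00, SE 0.09, limma adjusted p = 2.06e-08 in KO; -2.62, SE 0.09, adjusted p = 8.31e-09 in WT macrophages). The transcript of the inhibitory receptor thus was higher and that of its phosphatase lower after LPS. *Ptpn22* (-1.32 in KO and -1.69 in WT macrophages) and *Dok2* (-1.29 and -1.23) also fell, and *Ptpn6*, which encodes SHP-1, rose (1.23 and 1.22). *Pag1*, an adaptor that holds the kinase Csk at the membrane, had -0.93 in KO and -1.50 in WT macrophages and was called in WT ones alone.

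**Figure D5:**
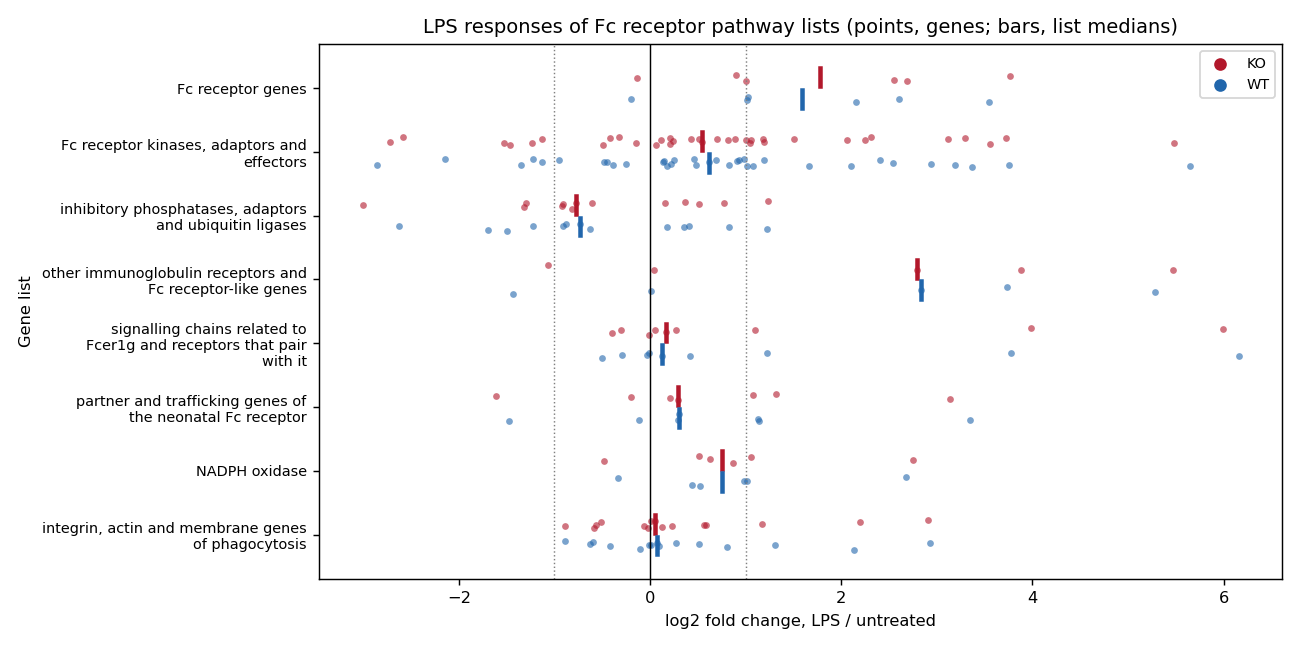
Log2 fold changes for LPS against untreated (x axis) of every tested gene of 8 lists (rows) in KO (red, upper) and WT (blue, lower) macrophages, with list medians as bars and dotted lines at the fold threshold. The medians of the 6 Fc receptor genes are 1.78 and 1.59, those of the inhibitory list -0.78 and -0.74. *Fcgr3* and *Fcer1g*, near 1 here, turn slightly negative with quantile normalization.

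Of 12 other immunoglobulin receptor and Fc receptor-like genes 5 were tested with LPS, and 3 were called higher and 1 lower in each genotype. *Trim21*, a cytosolic receptor for antibody, had 7764 ± 734 normalized counts in LPS-treated and 535 ± 132 in untreated KO macrophages, and 7241 ± 189 and 549 ± 84.9 in WT ones (log2 3.88 and 3.73). *Fcrlb* is described above, *Fcrl5* had 2.80 and 2.84 at low levels (at most 31.9 on average), and *Fcrl1* had -1.07 and -1.43. *Fcer1a*, the IgE-binding chain of the mast cell receptor that also uses *Fcer1g*, was at 0 in all 12 libraries. The mast cell and basophil markers summed to 1356 to 1569 normalized counts in LPS-treated and 12.9 to 18.0 in untreated KO macrophages, and to 1175 to 1377 and 11.2 to 15.8 in WT ones, with *Fcer1a* and *Tpsb2* at 0 in each. Nearly all of this was *Hdc*, which encodes histidine decarboxylase, with 1448 ± 107 in LPS-treated KO and 1249 ± 103 in LPS-treated WT macrophages.

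Among the γ chain's relatives and partner receptors, 9 of 16 were tested and 3 were called higher in each genotype. *Clec4e*, which encodes Mincle, a lectin that signals through the γ chain, rose to 21030 ± 1394 normalized counts in LPS-treated KO macrophages, against 333 ± 71.9 in untreated ones, and to 19029 ± 2805 in LPS-treated WT macrophages, against 271 ± 81.8 (log2 6.00 and 6.16). *Clec4d* rose by 1.10 and 1.22, and *Cd247*, the ζ chain related to *Fcer1g*, had 3.99 and 3.78 at low levels (25.7 and 20.0 on average with LPS). *Tyrobp*, which encodes the related chain DAP12, had 0.17 and 0.13 and was not called.

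The partners of FcRn did not share one direction. *B2m*, the light chain of FcRn and of MHC class I, had 77765 ± 8121 normalized counts in LPS-treated and 31292 ± 4809 in untreated KO macrophages, and 82406 ± 3149 and 37625 ± 6444 in WT ones (log2 1.32 and 1.14). Of the 7 tested partner and trafficking genes 3 were called higher and 1 lower in each genotype, with *Rab11fip1* at 3.14 and 3.34, *Snx2* at 1.08 and 1.13 and *Rab4a* at -1.61 and -1.48. Of 6 NADPH oxidase genes, *Cybb*, which encodes the catalytic subunit, rose by 2.75 in KO and 2.68 in WT macrophages and *Rac2* by 1.06 and 1.02. Of 15 tested integrin, actin and membrane genes of phagocytosis, 3 were called higher in each genotype, near the share of all genes (17.3% in KO and 17.1% in WT macrophages), namely *Itgal* (2.91 and 2.92), *Myo10* (2.20 and 2.13) and *Ptk2b* (1.17 and 1.30). The medians of these 3 lists were 0.29, 0.75 and 0.05 in KO and 0.31, 0.75 and 0.07 in WT macrophages.

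Between KO and WT macrophages no gene of the 7 further lists was called in either treatment. At the adjusted p alone 1 gene of these lists passed, in LPS-treated macrophages, where 0.504% of all genes tested passed as higher and 0.312% as lower. This was *Pag1*, with 198 ± 12.2 normalized counts in KO and 123 ± 12.6 in WT macrophages (log2 0.69, SE 0.13, limma adjusted p = 0.0457). Other settings are not given for it. *Inpp5d* had a log2 fold change of 0.13 in untreated and -0.25 in LPS-treated KO against WT macrophages and did not pass. *Syk* had -0.02 and 0.10, and *B2m* -0.26 and -0.09, and neither passed. The medians of the 7 further lists were -0.03 to 0.16 in untreated and -0.09 to 0.15 in LPS-treated macrophages, against -0.28 and -0.26 for the 6 Fc receptor genes. KO replicate 2 was the lowest KO library for all 6 of these in both treatments, and their differences were smaller without it. Medians of the further lists without that replicate are not given.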

How the data were processed

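RNA was sequenced from the 12 BMDM libraries as paired-end reads of 150 bp. Trimmomatic (0.39), STAR (2.7.4a, on GRCm38) and featureCounts of Subread (2.0.1) are the trimming, alignment and counting tools named by the authors. The deposited signal values are counts divided by DESeq2 size factors estimated by the authors, without a log. Divided by the smallest value above 0 of their library, 100% of the values were whole reads within 1e-06, and count tests on these reads were run as alternatives. The study calls the replicates biological.

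Log2 of the normalized count plus 1 was fitted with limma (3.58.1, R 4.3.3) with a trended variance, on genes whose mean reached 10 over the groups compared, and p-values were adjusted by Benjamini-Hochberg across those genes. Genes were called at 0.05 where their log2 fold change also reached 1 in size. For the interaction, 1 model of the 12 libraries was used, with calls by the adjusted p alone. The fits were tested on simulated data. Beside the 6 genes, the text names up to 4 called members of each list in the LPS comparison of WT macrophages, the 3 genes most like each member and the nearest tested neighbours, of which 2 are not reported here. *Syk*, *Tyrobp*, *Ptpn6*, *Xist*, *Hdc*, *Fcer1a*, *Tpsb2*, *Lyz2*, *Adgre1*, *Cd68* and *Itgam* were named after their values were seen. Members and lists were chosen with earlier results of these data known. Of the 154 listed symbols 151 were in the table. Positions and transcripts came from GENCODE (GRCm38).

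Within a genotype the replicate numbers were taken to pair LPS-treated and untreated libraries. Those of one number deviated together (r of 0.292, 0.278 and 0.167 in KO and 0.331, 0.186 and 0.240 in WT macrophages). The study describes its RNA-seq comparisons as unpaired, and the main fits were unpaired too. The alternatives were pseudocounts of 0.5 and 5, a mean filter of 50 or none, CPM, upper quartile and quantile scaling, one fit of all libraries, no variance trend, the replicate number as a block, edgeR (4.0.16) and DESeq2 (1.42.0) on the reads, the adjusted p alone, and each library left out. Fits without KO replicate 2 and without or with *Xist* were chosen after the values were seen.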

Additional observations from a re-analysis of the deposited data

How the results depend on the processing

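The count of Fc receptor genes called with LPS in WT macrophages was 5 and became 3 with CPM scaling, with quantile normalization and with edgeR, and 4 to 5 with each library left out. In KO macrophages it was 3 and became 5 with upper quartile scaling and at the adjusted p alone, 4 with DESeq2, 4 without both libraries of KO replicate 2 (chosen after seeing the data), and 3 to 5 with each library left out, with 5 without KO LPS replicate 2. Between the genotypes in untreated macrophages it was 0 and became 1, *Fcgr2b*, at the adjusted p alone. With LPS the genes concerned were *Fcgr3* and *Fcer1g*, whose log2 fold changes lie near the threshold, and the cause was not tested. With quantile normalization the LPS log2 fold changes turned to -0.15 for *Fcgr3* and -0.023 for *Fcer1g* in KO, and to -0.035 and -0.049 in WT macrophages. *Fcgrt* in KO macrophages turned to 0.050 with upper quartile scaling, and was -0.29 to 0.090 with each library left out, highest without KO LPS replicate 2. *Fcgr1* between untreated KO and WT macrophages turned to 0.17 without the libraries with *Xist*. Interactions near 0 changed sign as well, that of *Fcer1g* to 0.028 with CPM scaling and 0.023 with quantile normalization. Over fits with a library left out they were -0.044 to 0.034 for *Fcer1g*, -0.12 to 0.29 for *Fcgrt*, -0.19 to 0.0042 for *Fcgr3* and -0.14 to 0.38 for *Fcgr1*. CPM, upper quartile and quantile scaling moved the median of all genes with LPS to -0.69, 0.17 and -0.16 in KO and -0.74, 0.16 and -0.15 in WT macrophages. With CPM scaling 1447 genes were called higher and 4621 lower in KO, and 1379 and 4784 in WT macrophages, against 2201 and 2108, and 2158 and 2136, with the size factors.

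With the replicate number as a block, the counts of Fc receptor genes called stayed at 3 for LPS in KO, 5 for LPS in WT macrophages and 0 in the other comparisons, so no count changed. At the adjusted p alone the block moved *Fcgrt* with LPS in WT macrophages to 0.00559, against 0.316 without it, and changed no other result of the 6 genes with LPS or in the interaction. Between the genotypes the numbers do not pair libraries (r of -0.197 to 0.241), and the block there gave adjusted p of 0.00789 for *Fcgr2b* and 0.0101 for *Fcgr4* in untreated and 0.0172 for *Fcgr2b* in LPS-treated macrophages. With 3 libraries a group, the intervals give the precision between KO and WT macrophages, and a gene that did not pass is not shown to be unchanged. The smallest detectable difference was not computed.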
